A study of Mus musculus and Rattus norvegicus with 21 samples.

Results

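H3K4me3, the trimethyl mark on lysine 4 of histone H3, was compared by chromatin immunoprecipitation and sequencing (ChIP-seq) between thyroid glands of wild-type (WT) mice on a low iodide diet (LID) and on a normal diet (ND). The comparison rests on 2 of the 21 samples of the series, chosen by antibody, genotype and diet: 1 WT-LID library with 16339 peaks and 1 WT-ND library with 16570 peaks on chromosomes 1 to 19. With 1 library for each diet there was no replicate, so no test was run, and every difference below is a difference between a pair of libraries. Both groups were C57BL/6 animals labelled as 1 month old. The LID was the iodine-deficient diet TD.95125 and the ND was NIH-31 chow. The study's methods give days on the LID for the histone libraries, and for the NKX2.1 and PAX8 libraries used below they describe older Glis3-EGFP mice kept longer on the LID, where the labels give WT mice of 1 month. Whole glands were used, and the sources used here do not say whether glands of several animals were pooled. Glis3 knockout (Glis3KO) thyroids on the same diets, 1 library each with 16080 (ND) and 15235 (LID) peaks, served only to show where WT differed.

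H3K4me3 is placed by SET1 and MLL complexes around the start sites of genes that are transcribed or poised, and its breadth tends to follow how steadily a promoter is used. When iodide is scarce, thyroid hormone falls and the pituitary releases more thyroid-stimulating hormone (TSH), which signals through its receptor and cAMP in follicular cells. Over time TSH raises iodide uptake and hormone synthesis, expands the secretory pathway, drives follicular cells to divide and makes the gland more vascular. The question put to these libraries was which promoters carried the mark on one diet only, how far the mark spread at the others, and whether genes of these 4 responses were among them.

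Among gene lists with 10 or more marked genes, the endothelial list had the highest median change towards the LID. Some smaller lists had higher medians: fibroblast markers 385.5 bp (6 marked) and pericyte and smooth muscle markers 434.5 bp (4 marked). Skeletal muscle markers, with 1 marked gene, stood at 940 bp. Of 26 endothelial markers and receptors, 23 were marked on either diet, 7 of them on the LID only (Tie1, Nos3, Esm1, Calcrl, Erg, Tek and Notch4) and 1 on the ND only (Robo4). In comparison, 3.75% of all 13163 genes marked on either diet were marked on the LID only and 2.69% on the ND only. Among the 2654 of these that averaged under 1000 covered bases in Glis3KO, 16.7% were LID only and 12.4% ND only. Of the 14 endothelial genes of that narrower kind, 7 were LID only and 1 was ND only. Covered bases within 1 kb of the start site were higher on the LID at 17 of the 23 genes and higher on the ND at 4, with a median change of 292 bp, against a median of 0 over all marked genes. Of 24 mitosis genes 18 were higher on the LID, with a median change of 163.5 bp. Of 18 cAMP and immediate early genes 9 were higher on the ND, 10 of the 18 having filled the whole window there. Among all marked genes 49.95% were higher on the LID and 40.6% on the ND. The thyroid genes Cdh16 and Dio2 carried the mark within 1 kb of their start sites on the ND only. These are bulk glands, so fewer cells of a type and less mark per cell cannot be told apart.

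**Figure D1:**
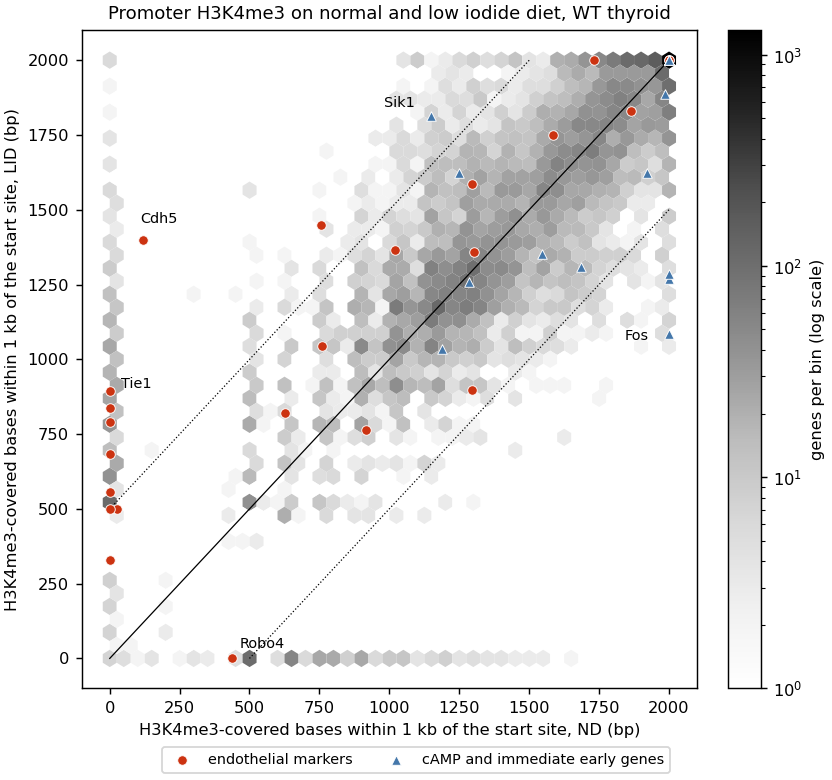
Each of 13163 genes marked on either diet is placed by its H3K4me3-covered bases within 1 kb of the start site (at most 2001 bp) on the ND (horizontal axis) and the LID (vertical axis), with grey shade for the number of genes per bin on a log scale, a solid line for equal values and dotted lines for a difference of 500 bp. The 23 endothelial genes (red circles) lie mostly above the solid line, 7 of them on the left edge at 0 bp on the ND, and of the 18 cAMP and immediate early genes (blue triangles) 9 lie below it.

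The 4 promoters below were each marked on 1 diet only: Tek and Tie1, the receptors of the angiopoietin system, on the LID, and Robo4, a guidance receptor of endothelial cells, and Dio2, the deiodinase that converts thyroxine to the active hormone, on the ND. They are shown as examples, and a link between promoter sequence and diet was not tested. Each line is the 250 bases upstream of the start site on the gene's own strand, from RefSeq on GRCm38 (mm10). Tek lies at chr4:94739039-94739288 on the plus strand, Tie1 at chr4:118489850-118490099 on the minus strand, Robo4 at chr9:37401722-37401971 on the plus strand and Dio2 at chr12:90739039-90739288 on the minus strand. Capitals mark matches on either strand to the cAMP response element (CRE), whose letters TGACGTCA are their own reverse complement, to the TATA box in its form TATAAA, and to the 5 letters of the CCAAT box. None of these motifs contains another.
Tek: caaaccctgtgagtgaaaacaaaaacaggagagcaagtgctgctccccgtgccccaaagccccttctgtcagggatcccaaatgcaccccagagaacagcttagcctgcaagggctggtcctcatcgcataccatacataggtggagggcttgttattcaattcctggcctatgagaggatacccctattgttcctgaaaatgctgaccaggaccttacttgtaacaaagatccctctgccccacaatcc
Tie1: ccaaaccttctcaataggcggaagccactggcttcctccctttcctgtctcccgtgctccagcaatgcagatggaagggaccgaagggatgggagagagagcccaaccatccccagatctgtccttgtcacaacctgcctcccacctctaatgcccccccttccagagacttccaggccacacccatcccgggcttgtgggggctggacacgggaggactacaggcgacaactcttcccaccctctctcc
Robo4: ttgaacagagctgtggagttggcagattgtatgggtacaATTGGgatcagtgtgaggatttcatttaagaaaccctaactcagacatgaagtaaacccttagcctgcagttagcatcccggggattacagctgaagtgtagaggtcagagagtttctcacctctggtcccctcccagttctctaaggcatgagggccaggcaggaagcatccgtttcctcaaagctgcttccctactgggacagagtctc
Dio2: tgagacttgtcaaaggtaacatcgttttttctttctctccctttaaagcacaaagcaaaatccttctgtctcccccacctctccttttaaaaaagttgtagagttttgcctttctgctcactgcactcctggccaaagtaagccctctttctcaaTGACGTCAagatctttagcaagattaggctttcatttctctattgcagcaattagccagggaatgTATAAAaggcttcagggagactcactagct

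The Dio2 promoter held a CRE, beginning 95 bases upstream of the start site, and a TATA box beginning 30 bases upstream. Robo4 held a CCAAT box on the opposite strand, and Tek and Tie1 held none of the motifs. Over the 300 bases from 250 upstream to 50 downstream, 2.5% of 20017 promoters held the CRE, 12.7% the TATA box and 38.2% the CCAAT box. The peaks themselves lay downstream of these stretches. The Tie1 peak on the LID was 1004 bp wide with its midpoint 607 bp downstream of the start site, the Tek peak 501 bp with its midpoint 437 bp downstream, the Robo4 peak on the ND 1054 bp with its midpoint 1091 bp downstream, and the Dio2 peak on the ND 800 bp with its midpoint 620 bp downstream. All 4 promoters were poor in CpG, with an observed over expected CpG ratio in that 300-base window of 0.149 for Tek, 0.289 for Tie1, 0.106 for Robo4 and 0.202 for Dio2, against a median of 0.785 over genes marked on either diet.

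As a whole the mark was in much the same places on both diets. Peaks covered 25.53 Mb on the ND and 26.07 Mb on the LID, a ratio of 1.02. The median peak was 1415.5 bp wide on the ND and 1467 bp on the LID, and 75.0% and 77.2% of peaks lay within 1 kb of a start site. Of the LID peaks 85.5% overlapped an ND peak by at least 1 bp (95% Wilson interval 85.0 to 86.0%, counting error only), and of the ND peaks 84.4% overlapped an LID peak (83.9 to 85.0%). Shared bases made up 81.9% of the LID length and 83.6% of the ND length. Peaks that stood alone were narrow and mostly away from promoters. The 2367 LID peaks without a partner had a median width of 501 bp, the narrowest width in the lists, against 1596 bp for the others, and 29.2% of them lay near a start site against 85.3%. On the ND, 2581 peaks had no partner, with a median width of 501 bp, and 20.3% of them lay near a start site against 85.1%.

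Where the peaks of both libraries were merged, 18832 regions resulted, of which 12.6% were covered on the LID only, 13.7% on the ND only and 73.7% on both. Of the regions on both diets, 94.3% were also covered in Glis3KO-ND and 90.3% in Glis3KO-LID. Of the LID-only regions 34.9% were covered in Glis3KO-ND and 28.1% in Glis3KO-LID, and of the ND-only regions 26.0% and 19.0%. All 3 kinds of region were covered more often in Glis3KO-ND than in Glis3KO-LID. In 13696 regions made of exactly 1 peak in each library, the median width was 1556.5 bp on the ND and 1593 bp on the LID, the LID peak was the wider in 54.4% and the narrower in 44.0%, and 49.7% differed by at most 200 bp.

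**Figure D2:**
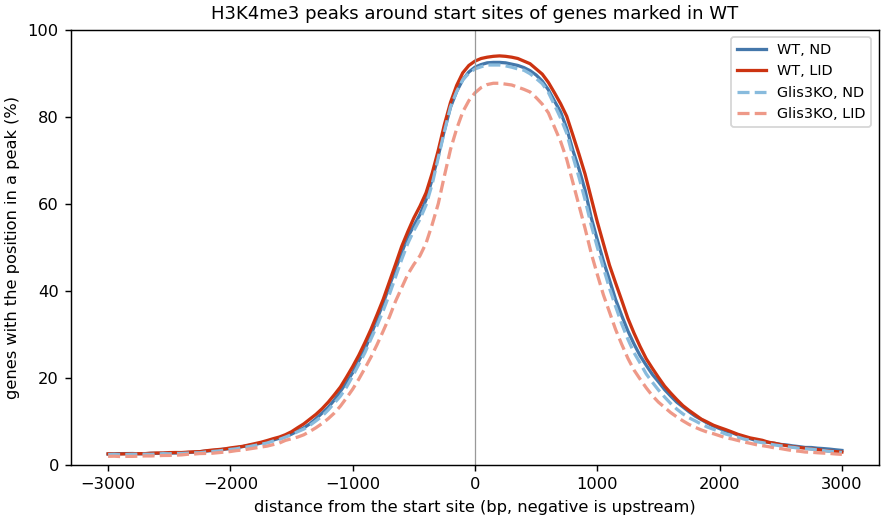
The lines give, for genes marked in WT on either diet, the percentage whose position lay inside a peak (vertical axis) by distance from the start site in bp (horizontal axis) in the 4 libraries. At 1000 bp downstream the WT lines stand at 51.8% (ND) and 55.9% (LID) and the Glis3KO lines at 50.1% (ND) and 43.8% (LID).

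Of 20021 protein-coding genes on the numbered chromosomes, 13163 (65.7%) had a peak within 1 kb of a start site in either WT library and 12315 in both. The mark was called on the LID only at 494 genes and on the ND only at 354. Among all marked genes, 6575 (49.95%, with a 95% Wilson interval of 49.1 to 50.8%) had more covered bases on the LID and 5345 (40.6%) on the ND, with a median change of 0 and quartiles of -97 and 147 bp. A gain of at least 500 bp on the LID was seen at 913 genes (6.94%) and a loss of that size at 595 (4.52%). The window saturates: 1170 genes (8.89%) were covered over all 2001 bp on both diets and could show no change. The additional coverage on the LID lay on both sides of the start site. Among genes marked on both diets the mean was 597 bp upstream on the ND and 607 bp on the LID, and 877 and 892 bp downstream.

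Genes marked on 1 diet only mostly had narrow peaks, and their promoters were more often CpG-poor than those of genes marked on both diets. The 494 LID-only genes had a median of 767 bp covered, and 27.9% had 1000 bp or more. The 354 ND-only genes had a median of 640.5 bp, and 18.6% had 1000 bp or more. The observed over expected CpG ratio of the 300-base window was below 0.6 at 59.3% of LID-only and 65.3% of ND-only promoters, against 20.1% of those marked on both diets and 94.9% of those marked on neither. The CRE was held by 2.23% of LID-only and 2.82% of ND-only promoters, against 3.55% of those marked on both diets. H3K27me3, the mark of Polycomb repression, lay over 21.7% of LID-only windows on the ND and 29.1% on the LID, and over 32.2% of ND-only windows on the ND and 23.4% on the LID, against 7.07% and 7.19% of windows marked on both diets. In both sets the H3K27me3 share was therefore the higher on the diet that carried H3K4me3. PAX8 peaks lay over 19.4% of LID-only, 21.8% of ND-only and 43.3% of both-diet windows, and NKX2.1 peaks over 74 of 494, 73 of 354 and 3647 of 12315.

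The Glis3KO libraries, which had no part in these calls, often held the same promoters. Of the 494 LID-only genes, 306 (61.9%) were marked in Glis3KO-ND and 248 (50.2%) in Glis3KO-LID. In Glis3KO, 62 of them (12.6%) were marked on the LID only and 120 (24.3%) on the ND only. Of the 354 ND-only genes, 52.5% were marked in Glis3KO-ND and 38.1% in Glis3KO-LID. Over all genes marked in WT on either diet, 95.2% were marked in Glis3KO-ND and 91.6% in Glis3KO-LID, 1.9% on the LID only and 5.52% on the ND only.

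Most receptors of vessel growth factors on the endothelial list were covered further on the LID. Tie1 was covered over 0 bp on the ND and 896 bp on the LID, and Tek over 0 and 501 bp. Flt4, the receptor for VEGF-C, went from 755 to 1448 bp, and Kdr, the main VEGF receptor, from 1732 bp to the full 2001 bp. Flt1, a VEGF receptor that also acts as a decoy, was at 1866 bp on the ND and 1830 bp on the LID. Calcrl, the receptor of adrenomedullin, went from 0 to 683 bp, and Ramp2, its accessory protein, from 1295 to 1587 bp. Thus Tie1, Tek, Flt4 and Calcrl each differed by at least 500 bp, and Flt1 was almost level.

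Junction, surface and secreted products of endothelium differed by up to 1282 bp. Cdh5, which encodes VE-cadherin, had the largest gain of the list, from 119 to 1401 bp. Its ND peak lay from 882 to 1382 bp downstream of the start site, and its LID peak ran from -400 to 1695 bp. Pecam1, an adhesion molecule of endothelial junctions, went from 26 to 501 bp and Esam, another one, from 1019 to 1367 bp. Eng, a co-receptor of BMP signals, went from 758 to 1045 bp, and Plvap, which forms diaphragms of fenestrated capillaries, from 627 to 822 bp. Nos3, the endothelial nitric oxide synthase, went from 0 to 837 bp, Esm1, a tip cell marker, from 0 to 792 bp, and Notch4, a Notch receptor of endothelium, from 0 to 328 bp. Aplnr, the apelin receptor, was at 916 bp on the ND and 763 bp on the LID, and Robo4 at 436 and 0 bp. Cdh5, Nos3 and Esm1 were thus covered further on the LID by 500 bp or more, and Aplnr and Robo4 further on the ND.

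Transcription factors of endothelium were split. Erg went from 0 to 556 bp, Sox7 from 1587 to 1750 bp and Sox18 from 1302 to 1358 bp, Fli1 was full on both diets, and Sox17 was covered over 1296 bp on the ND and 898 bp on the LID. Emcn, Vwf and Lyve1 had no peak on either diet. The 8 gains of at least 500 bp made up 34.8% of the 23 marked endothelial genes, and no loss of that size occurred.

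The sum over the list was 17736 bp in WT-ND and 25366 bp in WT-LID. In Glis3KO it was 19600 bp on the ND and 20456 bp on the LID, with 9 genes higher on the LID, 10 higher on the ND and a median change of 0, where all marked genes had 30.8% higher on the LID, 59.5% higher on the ND and a median of -49 bp. The WT-ND sum was the lowest of the 4 and the WT-LID sum the highest. In Glis3KO 5 of the 23 gained at least 500 bp on the LID (21.7%, against 3.21% of all marked genes). As much was lost at 4 (17.4%, against 11.4%). The largest gains there were at Pecam1 (0 to 1197 bp), Eng (0 to 936 bp) and Flt4 (633 to 1566 bp). Tek, Calcrl, Esm1 and Erg were also higher on the LID in Glis3KO, and Tie1 was at 0 bp on both diets there. Nos3, Notch4, Esam and Robo4 were marked in Glis3KO-ND (1222, 880, 955 and 628 bp) but not in Glis3KO-LID. Of the 23 endothelial genes, 14 had a mean below 1000 bp over the Glis3KO libraries. Among the 2654 marked genes with a mean below 1000 bp in Glis3KO, 16.7% were LID only and 12.4% ND only, and 20.2% gained and 14.0% lost at least 500 bp. Of the 14 endothelial genes in that class 7 were LID only, 1 was ND only, 7 gained at least 500 bp and 0 lost as much. The part that promoter width had in these calls was not tested.

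**Figure D3:**
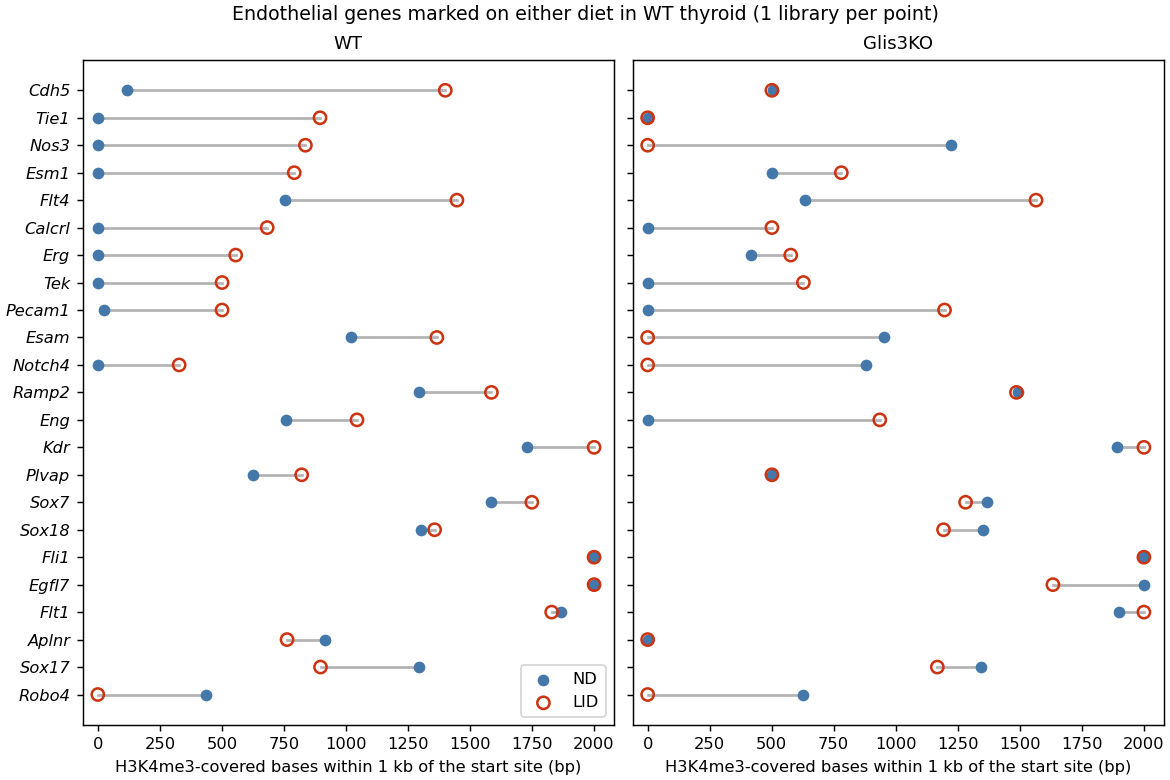
Rows are the 23 endothelial genes marked in WT, ordered by their change, and points are the H3K4me3-covered bases within 1 kb of the start site in bp on the ND (filled blue) and the LID (open red), 1 library each, in WT (left) and Glis3KO (right). In WT, 17 of 23 red points lie to the right of the blue ones, and in Glis3KO 9 do.

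The ligands of the vessel genes showed no such lean. Of 13 angiogenic ligands, 6 were higher on the LID and 5 on the ND, with a median of 0. Angpt2, an angiopoietin that endothelial cells release, went from 0 bp on the ND to 767 bp on the LID and was covered over 627 and 570 bp in Glis3KO-ND and Glis3KO-LID. Angpt1, which pericytes make for the Tek receptor, went from 887 to 1183 bp. Vegfa, the growth factor that follicular cells release, was at 1774 bp on the ND and 1489 bp on the LID, and Cxcl12, a chemokine for vessel growth, at 2001 and 1467 bp. Of 10 pericyte and smooth muscle markers 4 were marked. Myh11, smooth muscle myosin, went from 0 to 529 bp, and Kcnj8, a potassium channel of pericytes, from 1329 to 1863 bp, while Acta2, Tagln, Rgs5 and Cnn1 had no peak on either diet. With ligands and mural markers, the vessel class of 49 genes had 40 marked, 26 higher on the LID, 10 higher on the ND, 11 gains and 1 loss of at least 500 bp, and a median change of 179 bp. Gains made up 27.5% and losses 2.5% of the 40, against 6.94% and 4.52% of all marked genes.

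Markers of other cells of the gland were examined beside these genes. Of 12 fibroblast markers 6 were marked, and all 6 were higher on the LID, with sums of 4322 bp on the ND and 6741 bp on the LID. Col1a2, a chain of type I collagen, went from 0 to 896 bp and Pdgfra, the receptor that marks fibroblasts, from 1387 to 2001 bp. Of 10 C cell markers 6 were marked, with sums of 6175 and 7155 bp, and Chgb, a granin of hormone granules, went from 0 to 501 bp. Of 5 parathyroid markers 3 were marked, with sums of 3820 and 4769 bp, and Casr, the calcium receptor, went from 0 to 767 bp. Stromal and endocrine neighbours thus also had more covered bases on the LID.

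The remaining lists gave less. Nerve and Schwann cell markers summed to 7954 bp on the ND and 8686 bp on the LID, and Sox10, their lineage factor, went from 0 to 467 bp. Erythroid markers summed to 1165 and 2047 bp. Among 12 skeletal muscle markers only Des, which encodes desmin and is also made in smooth muscle, was marked, from 0 to 940 bp. Adipocyte markers went the other way, from 2570 to 1774 bp, with Ucp1 of brown fat at 637 bp on the ND and 0 bp on the LID. None of 13 immune markers and none of 8 inflammation genes had a peak on either diet.

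All 12 epithelial markers were marked on both diets, with sums of 17223 bp on the ND and 15395 bp on the LID, 8 higher on the ND, 2 on the LID and a median change of -134.5 bp. Krt7, a keratin of simple epithelia, went from 1852 to 1269 bp, although in a window of 2 kb either side it was 69 bp higher on the LID. Tjp1, a tight junction protein, was at 1706 and 1317 bp, but its peak was 2012 bp wide on the ND and 2401 bp on the LID, and at 2 kb either side it was 305 bp higher on the LID. The part that the makeup of the dissected tissue had in the endothelial result was not tested.

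Several genes with known roles in vessels also stood among the regions with the largest change in width. Of the 10 merged regions that widened most, Cd93, a lectin-like receptor of endothelial cells, went from 0 to 3812 bp, Tmem100, an endothelial protein induced by BMP signals, from 820 to 4319 bp and Aqp1, a water channel of endothelium and red cells, from 0 to 3308 bp. Egfl7, a matrix factor that endothelial cells secrete, went from 3370 to 6238 bp, and the shared promoter of Col4a1 and Col4a2, the basement membrane collagens, from 3592 to 6980 bp. Except for Egfl7, none of these was on the endothelial list, and their roles are given as background. NKX2.1 and PAX8 peaks each covered 300 bp of the Tmem100 region and of the Aqp1 region. Of the Col4a1 and Col4a2 region they covered 300 and 600 bp, and of the Cd93 and Egfl7 regions 0 bp. The study also lists Col4a1 and Col4a2 as bound by NKX2.1 and PAX8. Which cells of the gland carried the mark in these regions was not tested. The Cd93 region (chr2:148439785-148443596) had its midpoint in an exon of Cd93 and the Aqp1 region (chr6:55336247-55339554) in an intron of Aqp1. In Glis3KO-ND and Glis3KO-LID, Cd93 was covered over 2210 and 1456 bp, Tmem100 over 2646 and 1257 bp and Aqp1 over 501 and 0 bp.

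Others were Ptprs, a receptor phosphatase (501 to 5040 bp), Plec, the cytoskeletal linker plectin (0 to 4337 bp), Snai1, a repressor of epithelial genes (0 to 3803 bp), and Foxa2, a factor of endoderm (0 to 3479 bp). Each of the 10 regions contained a start site of its gene. In Glis3KO, 4 of the 10 were also wider on the LID than on the ND, among them Ptprs (2204 and 3873 bp), the Col4a1 and Col4a2 promoter (3468 and 3608 bp) and Foxa2 (2435 and 2640 bp).

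**Figure D4:**
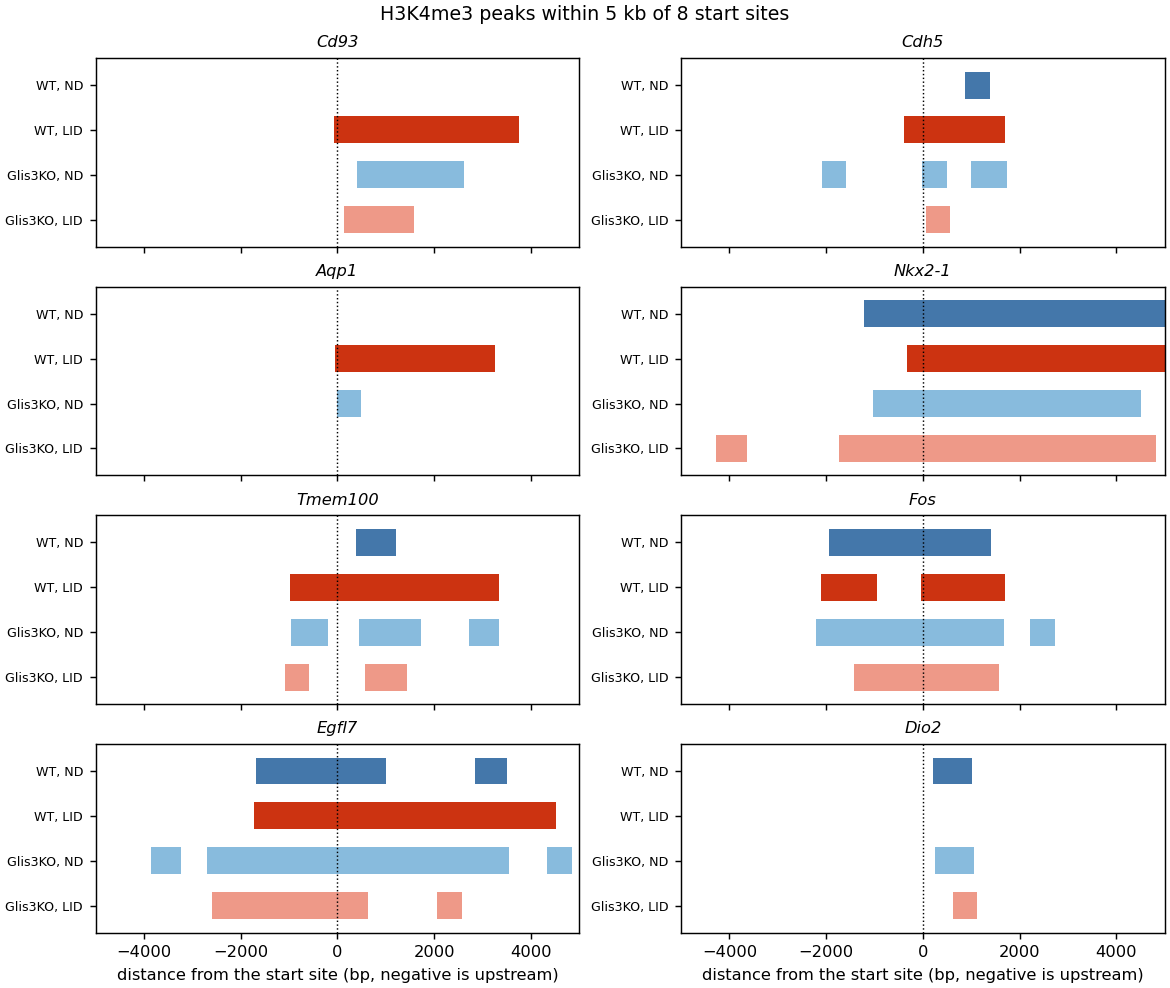
Boxes are H3K4me3 peaks drawn to scale within 5 kb of 8 start sites (horizontal axis, distance in bp on the gene's strand, peaks cut off at 5 kb), 1 row per library. Cd93, Aqp1, Tmem100, Egfl7 and Cdh5 have a wider box in WT-LID than in WT-ND, at Nkx2-1 the WT-LID box begins farther downstream than the WT-ND box, at Fos the WT-LID boxes leave a gap, and Dio2 has a box downstream of its start site in WT-ND and none in WT-LID.

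Regions that narrowed most had no shared list. The region of Lmx1b, a LIM homeobox factor, and C130021I20Rik was covered over 3903 bp on the ND and 0 bp on the LID, and over 0 and 2372 bp in Glis3KO-ND and Glis3KO-LID. Ablim1, an actin-binding LIM protein, went from 3085 to 0 bp, Fat3, an atypical cadherin, from 2813 to 0 bp, Trim67, a ubiquitin ligase, from 2736 to 0 bp and 2310015A10Rik from 2931 to 0 bp. Regions that stayed covered on both diets narrowed at Plekhh3 (5622 to 2702 bp), Plekhg3 with Mir5135 (5082 to 2461 bp) and Wwc1, a Hippo pathway scaffold (4902 to 2376 bp). A pair of regions held no start site: one of 5750 bp lay 1549 bp from Setd1b, a subunit of the enzyme that places H3K4me3, and was covered over 2606 bp on the LID, and one of 2645 bp lay 8961 bp from Tmpo, a protein of the nuclear lamina, and was not covered on the LID.

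Within the 1 kb window the 15 largest gains ran from 1713 to 2001 bp, and all 15 started from 0 bp on the ND. Those that went from no peak to the full window were Foxa2, Gli1, the effector of hedgehog signals, Hnrnpa1, a splicing factor, Ggta1, a galactosyltransferase, Tsga10 and Mphosph9. The others were Rpusd1, 2810006K23Rik, Fam155a, Kyat3, Negr1, Chtf18, Alg14, Pxmp4 and Zfp174, and the windows of Rpusd1 and Chtf18 and of Mphosph9 and 2810006K23Rik overlap. Of these 15 genes 14 were covered over 1000 bp or more in Glis3KO-ND, Alg14 being at 0 bp in both Glis3KO libraries. Hnrnpa1, a gene that nearly all cells use, was at 0 bp in WT-ND only and at 2001 bp in the other 3 libraries. Of the 15, 12 were also marked in Glis3KO-LID, and Fam155a and Negr1 were at 0 bp there. Foxa2 and Gli1 also had H3K27me3 on the LID (2001 and 1176 bp) and none on the ND.

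The 15 largest losses ran from 1499 to 2001 bp, and 13 ended at 0 bp on the LID. They were Lmx1b, Trim67, Pan2, Eps8l2, Adamts6, Slc7a10, Saysd1, Lrat, Flad1, Fat3, H2bu2, Abhd14a, Dtwd2, Dhcr7 and Nkapl. Lrat, which esterifies retinol, went from 1585 to 0 bp, and Dhcr7, the last enzyme of cholesterol synthesis, from 1517 to 0 bp. In Glis3KO 9 of the 15 also had at least 500 bp less on the LID than on the ND, against 11.4% of all the genes, and 2 had at least 500 bp more. Of the 15 gains, 1 (Kyat3) had at least 500 bp more on the LID in Glis3KO, against 3.21% of all the genes, and 5 had at least 500 bp less. Of all 595 losses in WT, 26.1% had at least 500 bp less on the LID in Glis3KO and 11.3% as much more. Of all 913 gains in WT the shares were 26.4% and 10.2%, so the full sets were alike in Glis3KO.

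The TSH-induced genes that the study names were split. Sod3, the extracellular superoxide dismutase, went from 0 bp on the ND to 941 bp on the LID, with a peak 1814 bp wide, and was at 501 bp in both Glis3KO libraries. Cdh16, the kidney and thyroid cadherin, went from 1002 bp in a pair of 501 bp peaks on the ND (chr8:104623413-104623913 and chr8:104624535-104625035) to 0 bp, and was at 0 bp in both Glis3KO libraries. Adm2, a peptide of the adrenomedullin family, was at 929 and 766 bp, Cdh13, an anchored cadherin, at 897 and 1164 bp, Dio1, a deiodinase, at 1027 and 1137 bp, Ano1, an anion channel, at 841 and 626 bp and Kcnq1, a potassium channel, at 1144 and 1455 bp. Pde4d, a phosphodiesterase that degrades cAMP, had no peak. Of the 7 marked genes 4 were higher on the LID and 3 on the ND. At Adm2 the whole peak widened on the LID by 1502 bp although fewer bases fell within 1 kb of the start site.

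Genes of hormone synthesis mostly kept their mark within 1 kb of the start site. Slc5a5, the sodium iodide symporter, was at 1230 bp on the ND and 1295 bp on the LID, Slc26a4, the anion exchanger pendrin, at 969 and 1264 bp, Tshr, the TSH receptor, at 1393 and 1557 bp and Iyd, which recycles iodide, at 1171 and 1128 bp. Their whole peaks differed more. On the ND and the LID the peak was 1371 and 2320 bp wide at Slc5a5 and 1393 and 2805 bp at Tshr. It was 1152 and 1438 bp wide at Slc26a4, and at Iyd it was the wider on the ND (3891 and 2897 bp). Duoxa1, a maturation factor of the peroxide-producing enzyme, went from 501 to 1267 bp, and Duox2 and Duoxa2, which share a promoter region, were full on both diets. NKX2.1 and PAX8 peaks each covered 300 bp of the Cdh16 window. Tg, the thyroglobulin gene, and Duox1 had no peak within 1 kb of a start site on either diet. In Glis3KO, Tg was covered over 1056 bp on the ND and 1091 bp on the LID, by peaks 4331 and 5233 bp wide. The deposited lists hold no signal, so whether the WT lists missed a Tg peak was not tested.

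Of 9 marked genes of the study's thyroid function list, 1 was higher on the LID (Gpx1, 915 to 1118 bp) and 5 on the ND. Dio2 went from 781 to 0 bp, and was at 748 and 372 bp in Glis3KO-ND and Glis3KO-LID, lower on the LID in both genotypes. Txn2, a mitochondrial thioredoxin, was at 1597 and 1327 bp. Among the thyroid transcription factors, Pax8, Foxe1 and Hhex were full on both diets and Glis3 was at 1337 and 1311 bp. Nkx2-1, the factor that specifies thyroid and lung, was at 2001 bp on the ND and 1337 bp on the LID, and its peak was 10517 bp wide on the ND and 5569 bp on the LID, against 5535 and 6565 bp in Glis3KO-ND and Glis3KO-LID.

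Genes that cAMP switches on within minutes to hours were more often higher on the ND than on the LID, from a high starting point. On the ND, 10 of the 18 (Fos, Jun, Egr1, Egr2, Nr4a2, Nr4a3, Per1, Atf3, Ier2 and Pde10a) already filled the 2001 bp window and could only stay level or go lower, against 12.3% of all marked genes. Of these 10, 3 were lower on the LID, against 27.9% of all the genes that were full on the ND. Of the other 8, 6 were higher on the ND and 2 on the LID, against 42.4% and 56.98% of all marked genes not full on the ND. All 18 were marked on both diets, 9 were higher on the ND, 2 on the LID and 7 equal, with a median change of -13 bp and sums of 32024 bp (ND) and 29554 bp (LID). In WT 40.6% of all marked genes were higher on the ND and 49.95% on the LID. Fos, a subunit of AP-1, was at 2001 and 1085 bp. Its ND peak was unbroken from -1939 to 1405 bp, and on the LID peaks from -2101 to -947 bp and from -30 to 1699 bp left a gap between them. Per1, a clock gene with a CRE-driven promoter, was at 2001 and 1270 bp, but at its most 5' start site it was 142 bp higher on the LID. Ier2, an early response factor, was at 2001 and 1287 bp, and Dusp1, a phosphatase of MAP kinases, at 1685 and 1310 bp. Sik1, a kinase that limits CREB targets, went from 1150 to 1813 bp and Junb, of the AP-1 family, was at 1249 and 1624 bp. In Glis3KO 9 of the 18 were higher on the ND and 3 on the LID, with a median change of -1 bp, against 59.5% higher on the ND and a median of -49 bp over all marked genes there. Fos was full on both diets in Glis3KO.

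Upstream in the pathway, Adcy6, an adenylyl cyclase, went from 818 bp to the full window, the largest change of the 15 TSH receptor and cAMP signalling genes, of which 6 were higher on the LID and 6 on the ND. Of 17 IGF1, insulin and mTORC1 genes, 10 were higher on the LID and 4 on the ND. Akt1, the kinase below the insulin receptor, was at 1606 and 2001 bp, Igfbp5, an IGF-binding protein, at 1040 and 1358 bp, Tsc1, a brake on mTORC1, at 1711 and 1073 bp, and Rheb, its activator, at 2001 and 1379 bp. The class of TSH response genes as a whole had 57 of 58 genes marked, 22 higher on either diet, 3 gains and 6 losses of at least 500 bp and a median change of 0, as over all genes.

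Secretory genes were all marked on both diets where they were marked at all. Of 59, 32 were higher on the LID and 19 on the ND (54.24% and 32.2%), with a median change of 7 bp, 8 gains (13.6%) and 2 losses (3.39%) of at least 500 bp. For all marked genes the shares were 49.95% higher on the LID, 40.6% higher on the ND, 6.94% gains and 4.52% losses. Of 17 chaperones and isomerases of the endoplasmic reticulum, 7 were higher on the LID, 4 on the ND and 6 equal, with a median change of 0. The 3 gains of at least 500 bp were at Calr, a glycoprotein chaperone, from 1079 to 1845 bp, and at the isomerases Pdia3, from 1219 to 1939 bp, and Pdia4, from 1062 to 1653 bp. Pdia6, another isomerase, was at 1716 bp on the ND and 1380 bp on the LID. The Calr peak as a whole was the wider on the ND (2404 bp, against 2164 bp on the LID), and in a window of 2 kb either side its change was 85 bp. In the unfolded protein response, Ern1, the sensor IRE1, went from 1181 to 1922 bp and Derl1, of the degradation channel, from 1112 to 1875 bp, whereas Eif2ak3, the sensor PERK, went from the full window to 1159 bp and Ddit3, the factor CHOP below it, to 1274 bp. Trib3, another gene induced by that branch, went from 889 to 1424 bp. In Glis3KO the LID minus ND change was -1016 bp at Eif2ak3, -496 bp at Ddit3, 895 bp at Calr and 669 bp at Derl1. It was 37 bp at Pdia4, -8 bp at Pdia3, -148 bp at Ern1 and -638 bp at Trib3. Of these, only Trib3 differed the other way from WT by at least 500 bp, and Pdia3 and Pdia4 were almost level. Of 22 translocon and vesicle coat genes 16 were higher on the LID, among them Sar1a, the GTPase of COPII coats (1179 to 1804 bp), and Sec63, of the translocon (1139 to 1737 bp). The 7 marked lysosomal genes were level, with a median of 0, and Lrp2, the receptor megalin, was at 2001 and 1709 bp.

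Of 57 cell cycle genes, 33 were higher on the LID and 16 on the ND, with a median change of 28 bp. The shares were 57.89% and 28.1%, against 49.95% and 40.6% of all marked genes. They had 4 gains of at least 500 bp (7.02%, against 6.94% of all marked genes) and 0 losses of that size (4.52% of all marked genes). In a window of 0.5 kb either side, 23.2% of the class were higher on the LID, below the 28.7% of all marked genes. At 2 kb the shares were 70.2% and 55.9%. The mitosis list was not run by itself in these windows. Cdc6, which loads the replicative helicase, was marked on the LID only, from 0 to 1200 bp, and in Glis3KO on the ND only, at 501 bp. E2f1, the factor of the G1 to S transition, went from 1103 to 1759 bp, Chaf1a, a histone chaperone of replication, from 1152 to 1698 bp and Mcm6, a helicase subunit, from 1150 to 1670 bp. These 4 were the gains of at least 500 bp.

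In the mitosis list, 18 of 24 genes were higher on the LID and 5 on the ND, with a median change of 163.5 bp and none past 500 bp in either direction. The shares over all marked genes were 49.95% and 40.6%. Mad2l1, of the spindle checkpoint, was at 1040 and 1492 bp, Cdc20, its target, at 1060 and 1466 bp, and Bub1, a checkpoint kinase, at 1012 and 756 bp. The proliferation marker Mki67 was at 1922 and 1773 bp. In Glis3KO 17 of the 24 were higher on the ND and 7 on the LID, with a median change of -50 bp, beside 59.5% higher on the ND and a median of -49 bp over all marked genes. Of 11 G1 regulators 2 were higher on the LID and 4 on the ND in WT. Among 10 housekeeping genes 3 were higher on the LID and 5 on the ND, with a median of -1.5 bp.

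**Figure D5:**
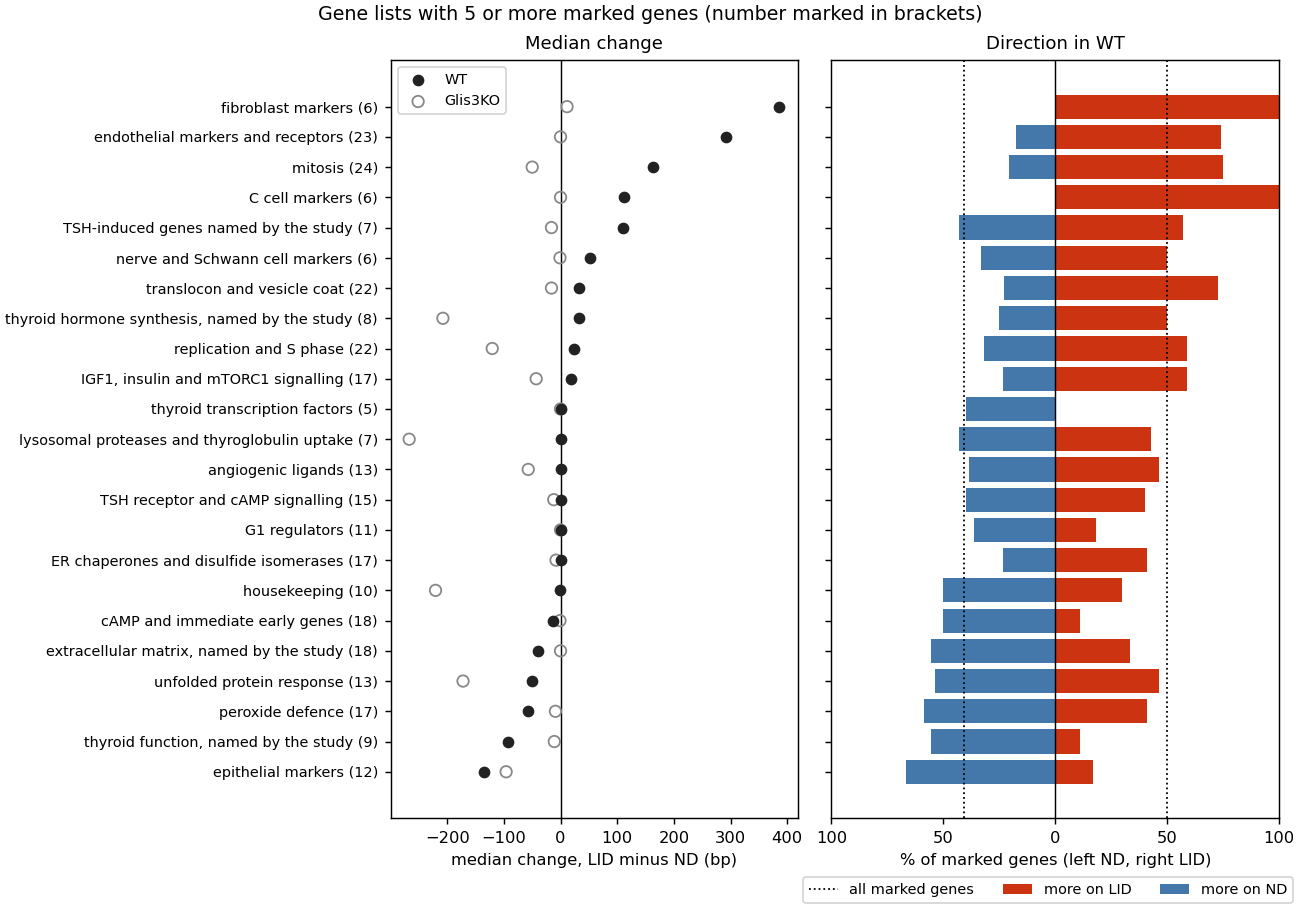
For each list with 5 or more marked genes, ordered by its WT median, the left panel gives the median change of covered bases (LID minus ND, bp) in WT (filled) and Glis3KO (open), and the right panel the percentage of marked genes with more bases on the LID (red, right) or the ND (blue, left) in WT, with dotted lines for all marked genes. Fibroblast markers (385.5 bp), endothelial markers (292 bp) and mitosis genes (163.5 bp) have the highest WT medians and epithelial markers (-134.5 bp) the lowest.

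In the 2 remaining lists a few genes moved far while the list did not. Of 17 genes that defend against peroxide, which the gland makes to iodinate thyroglobulin, 3 were marked on the LID only: Gpx3, the secreted glutathione peroxidase (0 to 892 bp), Nqo1, a quinone reductase (0 to 1100 bp), and Sod3. These made up 17.6% of the list, against 3.75% of all marked genes. The other 14 were marked on both diets, and 10 of the 17 were higher on the ND, with a median of -58 bp. Of 18 marked matrix genes that the study names, Itga2, a collagen-binding integrin, went from 0 to 1414 bp and Col1a2 from 0 to 896 bp, Col11a2, a collagen of cartilage, from 816 to 0 bp, and Cdh4, a cadherin, from 1730 to 1226 bp. In that list 10 genes were higher on the ND and 6 on the LID. The lists that the study named were chosen with thyroids of these genotypes and diets in view.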

How the data were processed

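Thyroid chromatin was immunoprecipitated with the H3K4me3 antibody ab8580 and sequenced. According to the study's methods and processing notes, the authors trimmed reads with cutadapt 1.12, aligned them to mm10 with Bowtie 1.2, removed duplicates with Picard 1.110 and called H3K4me3 regions per library with HOMER 4.10.3 from seeds of 500 bp, joining nearby ones. No source used here says if input served as control for the histone calls. The deposited lists hold positions only, with no score, count or signal, so the depth of each library is unknown, and a peak that misses the caller's threshold looks like no peak.

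Each protein-coding gene with curated RefSeq transcripts (GRCm38.p6) was given the bases that peaks covered within 1 kb of a start site, a window of 2001 bp. Where a gene has several start sites, the window with the most bases over both WT libraries was used. A gene was called marked with at least 1 bp, and a change called a gain or loss at 500 bp. The Glis3KO, H3K27me3, NKX2.1 and PAX8 values are from the window so chosen. Merged regions took the gene with the nearest start site. Promoter composition was read from the GRCm38 genome, and printed promoters from RefSeq. Chromosomes X and Y were left out, and with them 12 of 395 listed genes. Computation used Python 3.11.15 with pandas 2.3.3 and numpy 2.4.6, and was tested on simulated peaks.

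Groups came from the labels, 1 library each, and no test was possible. Named were the 15 largest gains and losses, the 10 regions that widened and narrowed most, the TSH-induced and hormone synthesis genes, and in other lists the genes marked on 1 diet only and up to 2 changes each way of at least 250 bp. Results for a few genes under this rule are not reported here. Other members of the lists were named after their values were seen. The members and the 30 lists were chosen with earlier results of these data known. Alternatives varied the window, start site, peak width, list length, gaps, chromosomes and size of change.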

Additional observations from a re-analysis of the deposited data

Results flagged for a closer look

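The diet difference pointed opposite ways in WT and Glis3KO for several values. None of these differences was tested, since each group is 1 library, and the WT windows were chosen from the WT libraries. The covered length on the LID was 1.02 times that on the ND in WT and 0.889 times in Glis3KO, and the share of genes with more covered bases on the LID was 49.95% in WT and 30.8% in Glis3KO.

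Among the genes of the lists and the 15 largest gains and losses, 11 had at least 500 bp more on the LID in WT and at least 500 bp less in Glis3KO. The change was 1200 bp in WT and -501 bp in Glis3KO at Cdc6, 1767 and -1004 bp at Chtf18, 896 and -1028 bp at Col1a2 and 656 and -624 bp at E2f1. It was 1867 and -1687 bp at Fam155a, 1812 and -1841 bp at Negr1, 837 and -1222 bp at Nos3 and 1100 and -1081 bp at Nqo1. At Rpusd1, which shares its promoter region with Chtf18, it was 1927 and -1033 bp, at Trib3 535 and -638 bp, and at Tsga10 2001 and -1302 bp. The opposite pattern was seen at Col11a2 (-816 and 733 bp), Lmx1b (-2001 and 1018 bp), Rheb (-622 and 594 bp) and Slc7a10 (-1648 and 1001 bp).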

How the results depend on the processing

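No paired analysis was possible because each diet has 1 library. The ratio of covered length kept its direction in all 5 alternatives run for it (1.02 to 1.033), and the counts of genes marked on 1 diet only stayed within 1.5 times of 494 (LID) and 354 (ND) except with the 10000 widest peaks of each library, a setting chosen after seeing the data. There LID-only genes numbered 892 and ND-only genes 837, losses 959, the share of genes with more bases on the LID was 48.6%, endothelial LID-only genes and gains were 4 and 4, and 88.7% of LID and 88.8% of ND peaks overlapped. The sizes of gains and losses followed the window and threshold by construction: 452 gains and 296 losses at 0.5 kb, 1667 and 1113 at 2 kb, 2137 and 1458 for a change of 250 bp, and 163 and 81 for 1000 bp. Endothelial gains numbered 4 at 0.5 kb, 15 at 2 kb, 14 for 250 bp, 1 for 1000 bp and 5 with peaks of at least 1 kb, where LID-only genes numbered 5 and ND-only genes 2. The share of genes with more bases on the LID was 28.7% at 0.5 kb, where 25.6% had more on the ND and the rest were level, and 55.9% at 2 kb against 43.3%. By class it was 24.6% (0.5 kb) and 59.6% (2 kb) for TSH response, 23.2% and 70.2% for cell cycle, and 35.6% (secretory) and 42.1% (vessel) at 0.5 kb. For the endothelial list it was 52.4% at 0.5 kb, with 4 of 21 genes higher on the ND, and for cAMP and immediate early genes 38.9% at 2 kb.

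The overlap of LID and ND peaks was 91.4% and 93.0% with peaks of at least 1 kb, 86.3% and 85.4% with peaks within 1 kb joined, and 83.1% and 82.4% when at least 50% of a peak had to be shared, and the ND share was 85.2% with lists of equal length. With peaks joined, 6 of the 10 widest gains and 3 of the 10 widest losses were among the 10 largest again. Of 80 named list genes, 5 turned direction in at least 1 alternative: Krt7 (-583 to 69 bp at 2 kb), Per1 (-731 to 142 bp at the most 5' start site), Adm2 (-163 to 837 bp at 2 kb and 766 bp with peaks of at least 1 kb or the 10000 widest), Tjp1 (-389 to 305 bp at 2 kb) and Tshr (164 to -144 bp with peaks joined). Of 47 named list genes with a called change, 43 were under 500 bp in at least 1 alternative. Depth, replicate spread and tissue makeup are unknown here, and the diet cannot be told apart from the library.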
